A study of Mus musculus with 4 samples.

Results

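The cornified envelope genes described here are the 47 features, of 32286 measured, whose symbols start with *Lce* or *Sprr*, together with *Lor*, *Flg*, *Flg2*, *Ivl*, *Hrnr*, *Rptn*, *Crnn*, *Kprp*, *Krtdap*, *Dmkn* and *2310050C09Rik*. The rule uses symbols alone and no measured value, although it was written with earlier results of these data known. Of these, 45 lie on chromosome 3 of mouse build GRCm38 within 1.32 Mb (chr3:92080271-93399442), in the gene cluster called the epidermal differentiation complex, and 2 (*Krtdap* and *Dmkn*) lie on chromosome 7. They were measured at P38 in the back skin of mice with the genotype *Krox20-CreERT; R26-tdTomato*. In this line a tamoxifen-dependent Cre is inserted into the *Krox20* gene, and the Cre switches on a red reporter. All samples carried both alleles and received 4-hydroxytamoxifen at P2, so there was no group without the alleles or the drug. Visium spatial transcriptomics was run on 4 slices, each with 1 section from each of the same 3 mice, and spots were compared by region within the skin. The slices are technical replicates, so every SD and p value here measures the spread between slices and does not cover differences between mice.

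When keratinocytes leave the granular layer, transglutaminases cross-link precursor proteins beneath the plasma membrane into the cornified envelope, which gives the skin its barrier. Loricrin, involucrin, the small proline-rich proteins (*Sprr* genes) and the late cornified envelope proteins (*Lce* genes) are such precursors, whereas filaggrin, filaggrin 2, hornerin, repetin and cornulin belong to the fused S100 type, whose long repeats bundle keratin filaments or join the envelope. The hair follicle (HF) also holds cornifying layers, in the infundibulum near the skin surface and in the sheath and cuticle layers around the growing shaft. The question addressed was which of these genes followed the interfollicular epidermis (IFE) and which followed the HF.

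Promoters of 44 of the 47 genes were found in the RefSeq table of GRCm38.p6. The window ran from 250 bases before to 50 bases after the start, 300 bases in all, and both strands were searched. The AP-1 motif TGANTCA was in 17 of 44 windows (38.6%) and in 8.97% of the 27025 genes of the table. The TATA motif TATAAA was in 22 of 44 windows (50%) and in 15.7% of all genes. The Grainyhead-like motif AACNGGTT was in 1 window (2.27%, against 2.35% of all genes), and the C/EBP motif TTGCNNAA in 6 (13.6%, against 12.2%). The AP-1 letters were not spread evenly over the families. They were in 7 of 10 *Sprr2* windows and in 2 of 2 *Sprr1* windows, in 0 of 13 *Lce1* windows and in 0 of 6 *Lce3* windows. A match is a description of letters and does not show a bound site. The 120 bases before the start are printed for 3 genes that were higher in the IFE than in every HF region named here (*Lor*, *Flg* and *Lce1m*) and for 5 that were higher in an HF region (*Ivl*, *Crnn*, *Sprr1a*, *Sprr1b* and *Lce3c*), because they show that letters of the same 2 motifs occur on both sides of that split. Capitals mark TGANTCA and TATAAA. The last sequence holds neither.

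*Lor* (chr3:92083143-92083262, minus strand): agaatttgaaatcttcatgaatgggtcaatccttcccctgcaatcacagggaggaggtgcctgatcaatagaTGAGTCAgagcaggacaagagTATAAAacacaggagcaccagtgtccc
*Flg* (chr3:93273426-93273545, plus strand): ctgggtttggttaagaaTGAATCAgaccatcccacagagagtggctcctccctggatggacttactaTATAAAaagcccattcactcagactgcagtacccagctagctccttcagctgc
*Lce1m* (chr3:93019062-93019181, minus strand): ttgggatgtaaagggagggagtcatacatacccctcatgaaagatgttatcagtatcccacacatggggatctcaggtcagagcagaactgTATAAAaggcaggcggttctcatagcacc
*Ivl* (chr3:92573736-92573855, minus strand): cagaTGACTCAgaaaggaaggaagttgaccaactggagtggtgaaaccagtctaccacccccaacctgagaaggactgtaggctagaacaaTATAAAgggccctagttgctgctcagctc
*Crnn* (chr3:93144669-93144788, plus strand): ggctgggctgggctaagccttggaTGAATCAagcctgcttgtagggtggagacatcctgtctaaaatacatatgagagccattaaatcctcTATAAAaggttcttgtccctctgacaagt
*Sprr1a* (chr3:92485882-92486001, minus strand): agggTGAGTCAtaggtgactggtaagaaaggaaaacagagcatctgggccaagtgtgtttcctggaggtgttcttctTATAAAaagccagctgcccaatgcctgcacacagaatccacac
*Sprr1b* (chr3:92438780-92438899, minus strand): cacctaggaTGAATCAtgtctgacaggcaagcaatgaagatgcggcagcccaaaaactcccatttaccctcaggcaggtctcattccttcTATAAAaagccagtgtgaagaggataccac
*Lce3c* (chr3:92944366-92944485, plus strand): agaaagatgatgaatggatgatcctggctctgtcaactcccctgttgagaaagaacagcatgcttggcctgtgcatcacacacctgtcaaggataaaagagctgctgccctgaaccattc

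The *Lor*, *Flg*, *Ivl*, *Crnn*, *Sprr1a* and *Sprr1b* sequences hold both motifs, and that of *Lce1m* holds the TATA letters alone. Among the genes classed as epidermal (higher in the IFE than in every HF region tested), 5 of 21 windows held TGANTCA, those of *Dmkn*, *Flg*, *Flg2*, *Krtdap* and *Lor*. Among those classed as follicular, 5 of 7 did, those of *Crnn*, *Ivl*, *Sprr1a*, *Sprr1b* and *Sprr2h*. The windows without it included those of the 13 *Lce1* genes and *Lce6a*, all epidermal, and of the follicular *Lce3c* and *Lce3d*. Family and class thus cannot be told apart in these counts.

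Slices held 19393026 to 26910422 unique molecular identifiers (UMIs), and 6411 of 6420 deposited spots had at least 250 detected genes and were kept. A spot is wider than a cell, so regions mix cell types, and a lower level can come from fewer cells of a type or from less RNA per cell, which cannot be told apart. Spots were clustered without the 47 genes and without 69 related genes, and clusters were named from marker lists. The IFE-like region (806 spots, median 8758 UMIs) was led by *Krt77*, *Krt10*, *Krt1* and *Calm4*, and 7 of its 10 markers passed the fold a name required. The upper HF-like region held 760 spots (median 9800.5 UMIs), the sebaceous gland-like region 255 (9210), the hair shaft-like region 783 (16341), the hair matrix-like region 907 (22105) and the muscle-like region 840 (14274). A pair of further HF regions kept no cell type name and are called by a leading gene. The *Slc45a3*-led region (1078 spots) joins 2 clusters, of which 1 with 278 spots came to 96.0% from replicate 1. The *Krtap4-9*-led region (725 spots) had 4 hair shaft markers past the fold, none among its 20 leading genes. None of these 12 clusters took the name of the outer or the inner root sheath. With 16 clusters, an inner root sheath-like region was named. Regions from marker scores included both sheaths. Slide positions are shared, and 750 spot barcodes occurred in all 4 slices, which marks grid positions and not shared cells. Levels are given as CPM, scaled to the summed UMIs of a region's spots.

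The 47 genes supplied 2.04% ± 0.13 (SD, n = 4 slices) of the UMIs of IFE-like spots. Their share was 0.583% ± 0.075 in upper HF-like spots, 0.624% ± 0.052 in sebaceous gland-like spots, 0.586% ± 0.063 in the *Krtap4-9*-led region and 0.505% ± 0.066 in hair shaft-like spots. It was lowest in hair matrix-like spots (0.174% ± 0.026), and muscle-like spots, which lie far from the epidermis, had 0.209% ± 0.024. The level in muscle-like spots is given beside low values for reference. Inner root sheath markers summed to 18104 to 18566 CPM in these spots and 8691 to 12082 CPM in the IFE. The reference is thus not free of HF markers.

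Of the 47 genes, 31 passed the filter on low counts in at least 1 comparison and 16 passed it in none. Those 16 were 10 of the 11 *Sprr2* genes, 4 of the 6 *Lce3* genes, *Sprr3* and *Sprr4*. They had 0 to 99 UMIs each among 91815705 in all, and *Sprr2a2*, *Sprr2d*, *Sprr2e*, *Sprr3* and *Lce3e* had 0, which at 3 counts allows a level of up to 0.0327 CPM over all spots. *Lce3a* was the highest, with 99 UMIs. Some of these genes resemble each other closely at the 3′ end, where the assay reads. Every 90-base word of the last 500 bases of *Sprr2a1* and *Sprr2a2* also occurred in another gene, as did 56.2% of those of *Sprr2a3*, 29.9% for *Lce3c*, 32.6% for *Lce3d* and 12.2% for *Lce1e*, so values of these genes are uncertain where reads could have been split or dropped. A gene that passed the filter only through the region where it was high could hardly fail to differ, so the counts of genes below describe the tested ones alone.

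The tested genes were sorted into 2 classes by a rule that asks more of the first class than of the second. A gene was classed as epidermal where it was called higher in IFE-like spots than in each HF region named from markers in which it was tested (upper HF, sebaceous gland, hair shaft and hair matrix), and as follicular where it was called higher in at least 1 of them than in IFE-like spots. This gave 23 epidermal and 7 follicular genes, and 1 gene, *Rptn*, was not separated. The comparisons with these regions set the classes, so how each class sorts in them follows from the rule at least in part. The epidermal genes were all 14 *Lce1* genes, *Lce6a*, *Lor*, *Krtdap*, *Dmkn*, *Kprp*, *2310050C09Rik*, *Flg*, *Flg2* and *Hrnr*. The follicular genes were *Crnn*, *Ivl*, *Sprr1a*, *Sprr1b*, *Sprr2h*, *Lce3c* and *Lce3d*. All 7 were called higher in hair shaft-like spots, and *Sprr1a* alone also in upper HF-like and sebaceous gland-like spots. Against hair matrix-like spots, 5 of the 6 tested were called higher in the IFE and 0 lower. The name follicular thus does not mean higher throughout the HF. Of the epidermal genes, *Lce1g*, *Lce1j* and *Lce1k* were tested in fewer than 4 HF regions, and of the follicular genes, *Lce3d* was tested in 1. Adding the regions led by *Slc45a3* and *Krtap4-9* moved no gene to another class. *Rptn* became follicular under 6 of 15 alternatives.

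On the chromosome the classes came in blocks. *Lor* (epidermal) is followed along chromosome 3 by the *Sprr2* genes, of which only *Sprr2h* was tested, and then by *Sprr1b*, *Sprr1a* and *Ivl*, all follicular. Next come *Lce6a*, the *Lce1* genes, *Kprp* and *2310050C09Rik*, all epidermal. The *Lce3* genes, with *Lce3c* and *Lce3d* follicular, begin 55070 bases further on and are followed by the epidermal *Lce1m*. *Crnn* (follicular, chr3:93144787-93149819) lies 125726 bases beyond the last of these and 47458 bases before *Flg2*, *Flg* and *Hrnr*, which were epidermal.

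**Figure D1:**
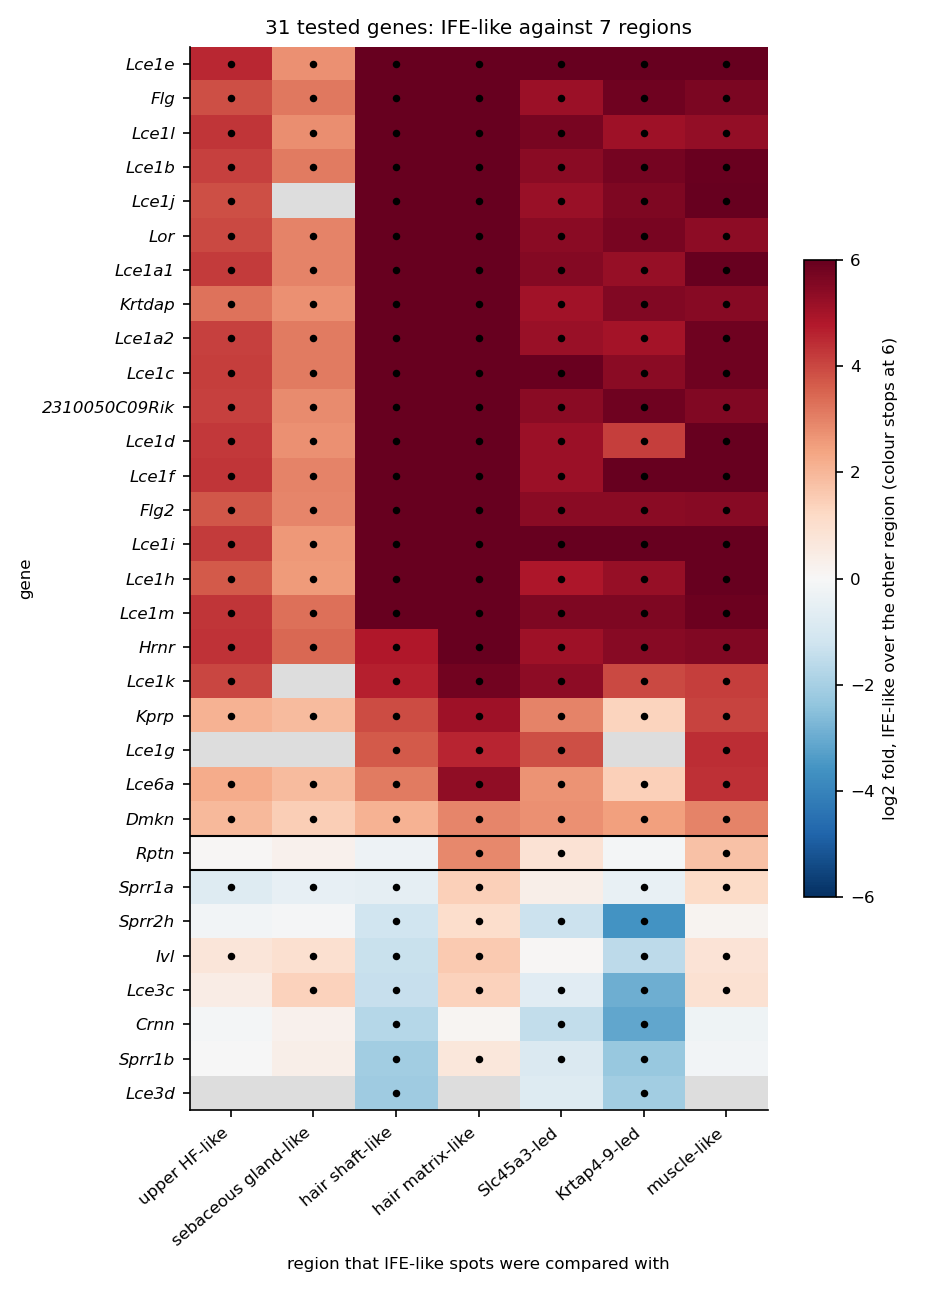
Colour shows the log2 fold of IFE-like spots over each of 7 regions (columns) for the 31 tested genes (rows; the lines part epidermal, not separated and follicular genes), black dots mark an adjusted p under 0.05 in edgeR's quasi-likelihood test, and grey means not tested. The 23 epidermal genes are red in each tested column, whereas the 7 follicular genes are blue against the hair shaft-like and *Krtap4-9*-led regions; fitted folds of genes with 3 UMIs or fewer in the second region depend on the prior count.

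Against upper HF-like spots, *Lor*, *Krtdap*, *Flg*, *Flg2*, *Hrnr* and the tested *Lce1* genes were far higher in IFE-like spots, and *Sprr1a* alone was called higher in the upper HF. Of the 29 genes tested, 23 were called higher in IFE-like spots (12.7% of all 10663 genes tested were), 1 was called higher in upper HF-like spots (11.6% of all genes), and 5 were not called. Their median log2 fold was 3.88, against -0.0028 over all genes. Both the count and the median include *Lce1d*, *Lce1e*, *Lce1f*, *Lce1h*, *Lce1i*, *Lce1j*, *Lce1k*, *Lce1l* and *Lce6a*. These did not pass the filter between upper HF-like and muscle-like spots. They passed it here through the IFE, so their calls could hardly fail.

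*Lor* encodes loricrin, the major protein of the mature envelope. It had 4234, 5290, 4525 and 4791 CPM in the IFE-like spots of the 4 slices and 232, 318, 356 and 325 CPM in the upper HF-like spots. The groups were far apart, with a log2 fold of 3.95 (SE 0.13, edgeR adjusted p = 3.651e-14). *Krtdap*, which encodes a small secreted protein of differentiating keratinocytes, had 4764, 5868, 5199 and 5463 CPM in the IFE and 496, 557, 594 and 570 CPM in the upper HF. Its log2 fold was 3.28 (SE 0.099, edgeR adjusted p = 2.581e-14). *Dmkn*, which encodes the secreted protein dermokine, differed less than most. It had 3732, 3862, 3492 and 3639 CPM in the IFE and 1044, 906, 935 and 948 CPM in the upper HF, with a log2 fold of 1.95 (SE 0.090, edgeR adjusted p = 4.507e-12).

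The fused S100 genes on the epidermal side behaved alike. *Flg*, whose product is cut into filaggrin units that bundle keratin, had 185, 326, 226 and 278 CPM in the IFE and a mean of 17.6 ± 2.33 CPM (SD, n = 4) in the upper HF. *Flg2* had 486, 624, 505 and 642 CPM in the IFE and 43.1 ± 2.07 CPM in the upper HF. *Hrnr* (hornerin) had 135, 135, 100.2 and 149 CPM in the IFE and 6.42 ± 1.10 CPM in the upper HF. No slice of the upper HF reached any slice of the IFE for these 3 genes, and their log2 folds were 3.85, 3.72 and 4.34 (edgeR adjusted p = 3.938e-12, 3.651e-14 and 2.973e-13). *Crnn* and *Rptn*, of the same type and in the same stretch of chromosome 3, did not follow them. *Crnn* (cornulin) had 337, 217, 241 and 204 CPM in the IFE and 388, 269, 215 and 213 CPM in the upper HF, and the groups overlapped (log2 fold -0.11, edgeR adjusted p = 0.736). *Rptn* (repetin) had 42.7, 26.8, 22.7 and 25.9 CPM in the IFE and 29.7 ± 14.3 CPM in the upper HF, with a log2 fold of 0.05 (edgeR adjusted p = 0.9204).

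The tested *Lce1* genes were all called higher in the IFE. Their IFE level ran from 9.02 CPM for *Lce1g* to 1126 ± 166 CPM for *Lce1m*, and the 13 that were tested against the upper HF had log2 folds of 3.67 to 4.50. *Lce1m* had 997, 1341, 994 and 1171 CPM in the IFE and a mean of 57.9 CPM in the upper HF. *Lce1e* had the highest log2 fold of the family, 4.50 (SE 0.39), on few counts. It had 27.4, 43.3, 14.9 and 31.1 CPM in the IFE and 1.26 CPM in the upper HF, where 10 UMIs were counted. *Lce1f* (54.2, 63.1, 41.9 and 39.7 CPM against 2.5), *Lce1l* (84.4, 96.9, 73.9 and 100.8 CPM against 4.53) and *Lce1d* (60.4, 98.8, 58.3 and 88.7 CPM against 4.04) were close behind, with log2 folds of 4.31, 4.30 and 4.24. The smallest epidermal differences against the upper HF were those of *Dmkn*, *Kprp* and *Lce6a*. *Kprp*, a proline-rich keratinocyte protein, had 172 ± 26.7 CPM in the IFE and 40.3 ± 4.81 CPM in the upper HF (log2 fold 2.10). *Lce6a* had 29.2 ± 4.68 CPM and 6.08 ± 3.49 CPM (2.25). *2310050C09Rik* had 402 ± 28.2 CPM and 23.9 ± 5.28 CPM, a log2 fold of 4.09.

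*Sprr1a*, which encodes a small proline-rich protein that bridges other envelope proteins, ran the other way. It had 2299, 1589, 1633 and 1814 CPM in the IFE and 4146, 2652, 2700 and 3247 CPM in the upper HF. Every upper HF slice was above every IFE slice, and the log2 fold was -0.79 (SE 0.14, edgeR adjusted p = 0.0002301). *Ivl* (involucrin, an early scaffold protein) was called higher in the IFE in this comparison, with 203, 201, 219 and 185 CPM against 146, 133, 117 and 94.2 CPM and a log2 fold of 0.72 (edgeR adjusted p = 0.0001883). The remaining follicular genes were not called here. *Sprr1b* had a log2 fold of -0.03 (edgeR adjusted p = 0.9458), *Sprr2h* one of -0.19 (0.5117) and *Lce3c* one of 0.45 (0.1834).

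Of the 10 upper HF markers, 6 were higher in upper HF-like spots than in the IFE and 4 were lower. They summed to 8786 to 9365 CPM across slices in upper HF-like spots and 5798 to 6354 CPM in the IFE. In sebaceous gland-like spots they summed to 7383 to 8944 CPM. Markers of other cell types also differed between the IFE and the upper HF. The summed level of 10 fibroblast markers was 34016 to 41755 CPM across slices in the IFE and 18857 to 27908 CPM in the upper HF, with 8 of 10 higher in the IFE. Immune markers summed to 2195 to 2953 CPM in the IFE and 721 to 1014 CPM in the upper HF, with 10 of 10 higher in the IFE. Their part in the differences was not tested.

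Against sebaceous gland-like spots, the epidermal genes were called higher in the IFE wherever they were tested, which the rule of that class requires. Of 27 genes tested, 22 were called higher in the IFE (7.66% of all 9086 genes were), 1, again *Sprr1a*, was called lower (8.95% of all genes), and 4 were not called. The median log2 fold was 2.74, against -0.0013 over all genes, and the 20 epidermal genes tested ran from 1.50 (*Dmkn*) to 3.45 (*Hrnr*). *Lor* had 602 ± 78.5 CPM and *Krtdap* 801 ± 34.8 CPM in sebaceous gland-like spots. *Sprr1a* had 2564 ± 268 CPM there, a log2 fold of -0.48 (edgeR adjusted p = 0.003524). *Ivl* (0.97) and *Lce3c* (1.40, edgeR adjusted p = 0.0015) were called higher in the IFE.

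The hair shaft-like and *Krtap4-9*-led regions lie deeper in the follicle. The comparison with hair shaft-like spots is part of the rule that set the classes, so the sorting of the genes there follows from it in part. Against hair shaft-like spots, 23 of 31 tested genes were called higher in the IFE (31% of all 11449 genes were), 7 were called higher in the hair shaft (28.6% of all genes), and 1 was not called. Against the *Krtap4-9*-led region, 22 of 30 were called higher in the IFE (24.1% of all 10883 genes) and 7 lower (22.9%), and 1 was not called. In each of these comparisons, 3 tested genes had 3 UMIs or fewer in a group, so their calls could hardly fail. The median log2 folds were 6.24 and 5.15, against -0.0167 and -0.0049 over all genes. *Lce1e* was the only gene without a UMI in hair shaft-like spots. Its log2 fold lay above the median both as fitted (9.24) and at its bound (7.07), so the bound could not move the median.

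*Lor* fell to 37.7 ± 7.9 CPM in hair shaft-like spots and 75.8 ± 27 CPM in the *Krtap4-9*-led region, log2 folds of 6.89 and 5.69. *Krtdap* had 43.9 ± 12.1 CPM and 94.8 ± 39 CPM (6.85 and 5.55). *Flg2* had 5.67 ± 2.5 CPM and 10.8 ± 2.92 CPM (6.57 and 5.43). These levels were at or under those of muscle-like spots, where *Lor* had 111 ± 24.8 CPM, *Krtdap* 118 ± 32.7 CPM and *Flg2* 12.1 ± 1.34 CPM. *Lce1e* had 0 UMIs in hair shaft-like spots, so that its IFE level was at least 134-fold higher, with 3 counts over the region taken as the floor. The folds of *Dmkn*, *Kprp* and *Lce6a* were smaller. *Dmkn* had 797 ± 127 CPM in hair shaft-like spots (log2 fold 2.11), and *Kprp* had 55.3 ± 4.69 CPM in the *Krtap4-9*-led region (log2 fold 1.35) but 10.7 ± 1.6 CPM in the hair shaft (3.93). *Lce6a* had 3.11 ± 0.873 CPM in the hair shaft (3.13) and 8.90 ± 3.04 CPM in the *Krtap4-9*-led region (1.41).

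*Crnn* was far higher in the deep follicle. It had 337, 217, 241 and 204 CPM in the IFE, 933, 772, 721 and 673 CPM in hair shaft-like spots, and 2145, 1770, 1570 and 1601 CPM in the *Krtap4-9*-led region. No slice of either HF region overlapped the IFE slices, and the log2 folds were -1.73 (edgeR adjusted p = 2.372e-08) and -3.12 (1.258e-12). In the *Slc45a3*-led region it had 697 ± 151 CPM (log2 fold -1.48, edgeR adjusted p = 7.246e-07). A UMI of *Crnn* was present in 100% of the *Krtap4-9*-led spots (also 100% after each spot was thinned to 5500 UMIs), in 82.8% of IFE-like spots (70.7% thinned) and in 94.8% of muscle-like spots (77.3% thinned). The IFE share of *Crnn* was thus under that in muscle-like spots. For *Lor* the same shares were 99.3% in the IFE (98.2% thinned) and 68.6% in muscle (39.6% thinned).

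*Sprr2h*, a further small proline-rich protein gene, had the largest log2 fold toward the follicle. It had 39.2, 28.7, 32.7 and 20.2 CPM in the IFE and 326, 321, 258 and 292 CPM in the *Krtap4-9*-led region, a log2 fold of -3.57 (edgeR adjusted p = 3.432e-14). In hair shaft-like spots it had 75.9, 69.9, 63.4 and 55.7 CPM, again above every IFE slice (-1.20, edgeR adjusted p = 6.185e-06). It was the only *Sprr2* gene with enough counts to test. *Sprr1b* was about equally high in both deep regions. It had 78.1, 54.2, 64.0 and 38.6 CPM in the IFE, 232, 274, 233 and 217 CPM in hair shaft-like spots (-2.09, edgeR adjusted p = 1.186e-09) and 254, 200.1, 232 and 253 CPM in the *Krtap4-9*-led region (-2.26, edgeR adjusted p = 3.575e-11).

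*Lce3c* and *Lce3d* went with the follicle, unlike the *Lce1* genes that flank them. *Lce3c* had 25.7, 22.9, 27.7 and 16.1 CPM in the IFE and 157, 134, 144 and 140 CPM in the *Krtap4-9*-led region, with a log2 fold of -2.92 (edgeR adjusted p = 9.894e-14). In hair shaft-like spots it had 64.8, 66.3, 52.4 and 45.2 CPM (-1.41, edgeR adjusted p = 1.803e-06). *Lce3d* was near the limit of detection, at 5.56, 5.10, 2.84 and 0 CPM in the IFE and 19.3, 23.0, 12.5 and 4.21 CPM in hair shaft-like spots, and the slices overlapped. Its log2 fold was -2.15 (SE 0.52, edgeR adjusted p = 0.001492). Against the *Krtap4-9*-led region it was -2.10 (0.001951), which DESeq2 did not call (adjusted p = 0.0547).

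*Ivl* was split between the regions. It had 446, 540, 500 and 401 CPM in hair shaft-like spots and 542, 479, 504 and 397 CPM in the *Krtap4-9*-led region, log2 folds of -1.32 (edgeR adjusted p = 1.805e-08) and -1.55 (7.874e-10) from its IFE level of 202 ± 14 CPM. Its IFE level thus lay above the upper HF and below the deep regions. *Sprr1a* differed less between the IFE and the deep regions. It had 3014, 2475, 1981 and 2338 CPM in hair shaft-like spots, which overlapped the highest IFE slice (-0.52, edgeR adjusted p = 0.006794; 0.06361 without replicate 2). In the *Krtap4-9*-led region it had 2028 ± 254 CPM (-0.44, edgeR adjusted p = 0.01712), a call that was lost without replicate 2 (0.08675) and with library size alone as the scaling (-0.14, 0.3535). That scaling moved the median of all genes in the comparison with the *Krtap4-9*-led region from -0.0049 to 0.29, and 75.7% of the genes called were then higher in the IFE, against 51.3%. *Rptn* had 35.6 ± 5.23 CPM in hair shaft-like spots (-0.29, edgeR adjusted p = 0.1564) and 27.5 ± 7.55 CPM in the *Krtap4-9*-led region (-0.14, 0.641).

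Markers of the inner root sheath were high in the hair shaft-like and *Krtap4-9*-led regions, as the follicular genes were, but the match did not extend to other regions. These 10 markers summed to 8691 to 12082 CPM in the IFE, 32398 to 36608 CPM in the *Krtap4-9*-led region and 44087 to 45924 CPM in hair shaft-like spots. In muscle-like spots they summed to 18104 to 18566 CPM. They summed to 18191 to 20784 CPM in hair matrix-like spots, where 5 of 6 tested follicular genes were called lower than in the IFE. In upper HF-like spots, where *Sprr1a* was highest, they summed to 8784 to 12284 CPM. The 9 measured hair shaft markers summed to 2811 to 6705 CPM in the IFE, 14211 to 27043 CPM in the *Krtap4-9*-led region and 12586 to 20007 CPM in the hair shaft. Their part in the follicular pattern was not tested.

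**Figure D2:**
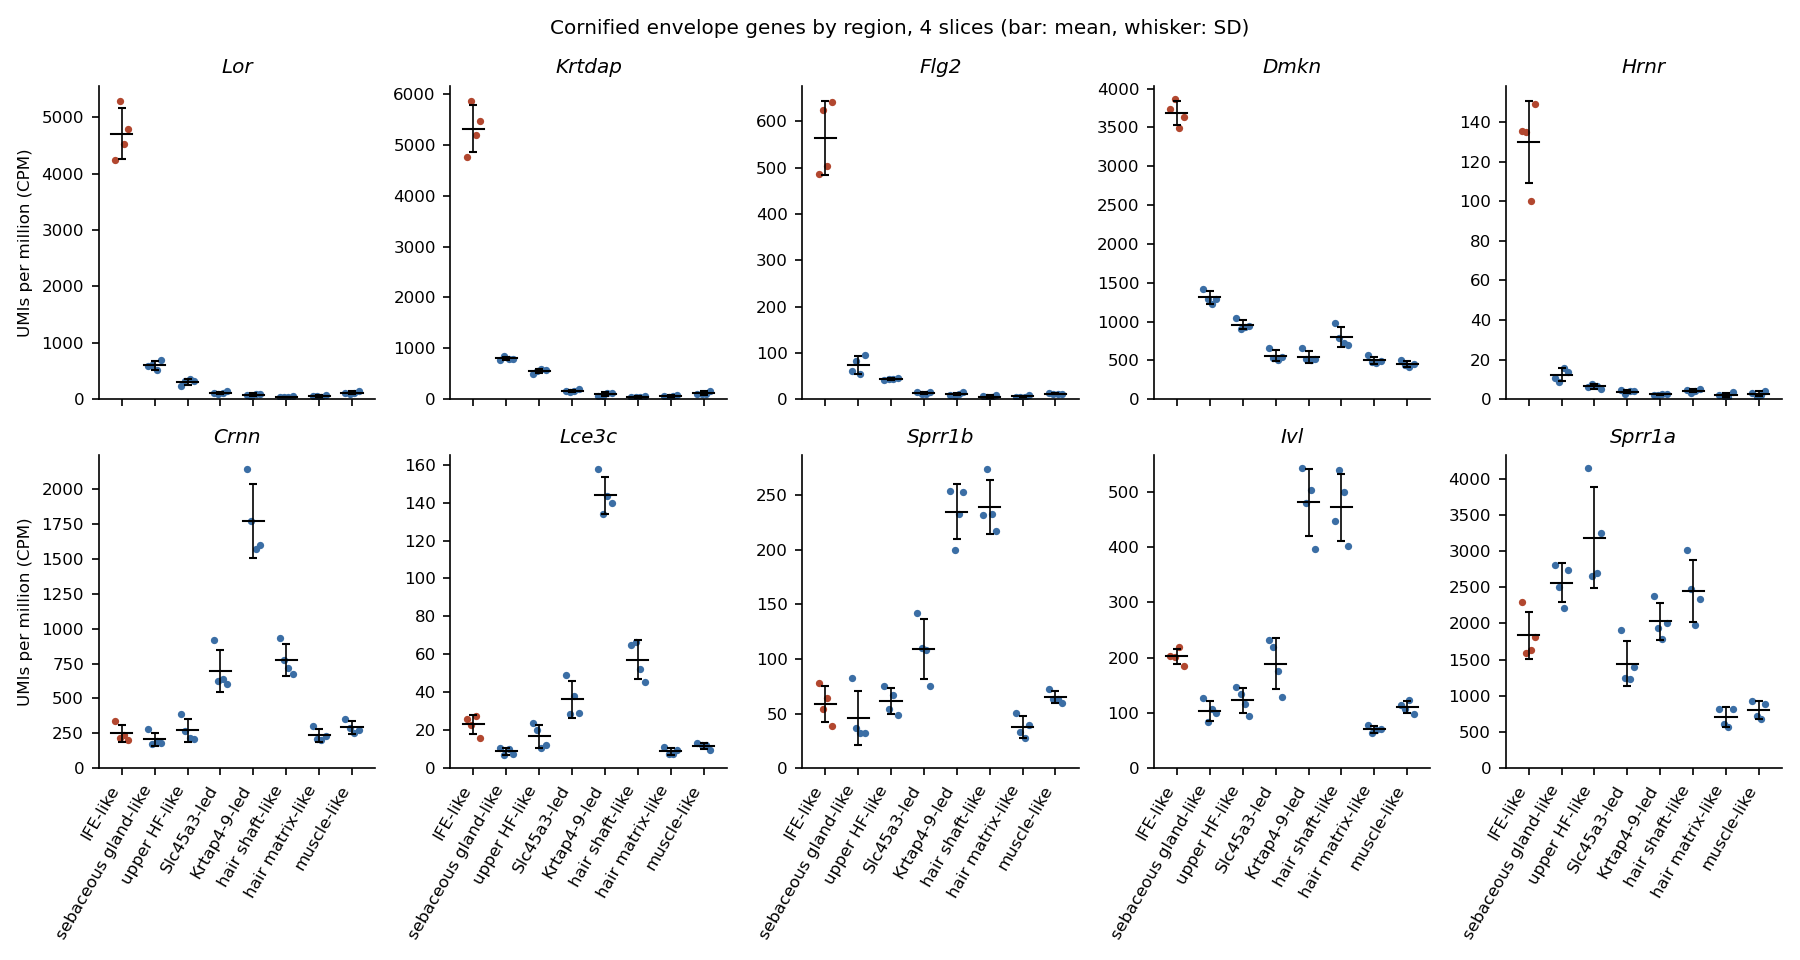
Level in CPM (linear axis from 0) of 10 genes in 8 regions; points are the 4 slices, bars their means and whiskers their SDs, with IFE-like spots in red. The upper row shows epidermal genes, with *Lor* between 4234 and 5290 CPM in the IFE, and the lower row follicular genes, with *Crnn* highest in the *Krtap4-9*-led region (1570 to 2145 CPM) and *Sprr1a* highest in the upper HF.

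In the *Slc45a3*-led region, 24 of 31 tested genes were lower than in the IFE (21.9% of all 11523 genes were called so), 4 were higher (18.6% of all genes) and 3 were not called. Those higher were *Crnn*, *Sprr2h*, *Sprr1b* and *Lce3c*. *Rptn* was among those lower there, at 16.5 ± 4.25 CPM (log2 fold 0.87, edgeR adjusted p = 0.003031). The hair matrix-like region, which holds the dividing cells that form the hair, had low levels of both classes. Of 30 genes tested, 29 were called higher in the IFE (34.9% of all 12012 genes, while 34.5% were called higher in the matrix), the follicular *Ivl* (1.55), *Sprr1a* (1.42), *Lce3c* (1.40), *Sprr2h* (1.08) and *Sprr1b* (0.69) among them. *Crnn* was the gene not called, at 237 ± 46.1 CPM against 250 ± 60 CPM in the IFE. Of the 30 genes, 2 had 3 UMIs or fewer in a group, so their calls could hardly fail.

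Against muscle-like spots, 27 of 30 tested genes were called higher in the IFE (29.2% of all 11775 genes were, while 28.6% were called lower). None was called lower by edgeR or DESeq2 (0 also at an unadjusted p under 0.05 with either tool), and 3 were not called. The 3 were *Crnn* (log2 fold -0.28, edgeR adjusted p = 0.09551), *Sprr1b* (-0.17, 0.3296) and *Sprr2h* (0.17, 0.422). Of the 30 genes, 2 had 3 UMIs or fewer in a group, so their calls could hardly fail. *Lce1j* had 0 UMIs in muscle-like spots, and its IFE level was at least 66.7-fold higher, with 3 counts taken as the floor. With the slice as a block *Crnn* was called higher in muscle-like spots (-0.29, edgeR adjusted p = 0.0005707). With 16 clusters *Sprr2h* was called higher in the IFE than in muscle (1.00, edgeR adjusted p = 0.006975). Inner root sheath markers summed to 18104 to 18566 CPM in muscle-like spots and 8691 to 12082 CPM in the IFE, and the part of these markers was not tested. *Ivl* (0.81, edgeR adjusted p = 2.418e-07), *Lce3c* (0.90, 0.0001995), *Sprr1a* (1.14, 8.137e-08) and *Rptn* (1.75, 1.525e-07) were called higher in the IFE than in muscle. Shares of spots with a UMI followed the levels after thinning for the genes that come next. As counted, *Sprr2h* was detected in more muscle-like than IFE-like spots, and muscle-like spots were deeper (median 14274 against 8758 UMIs). *Sprr2h* was detected in 24.9% of IFE-like spots (14.1% thinned), 85.0% of *Krtap4-9*-led spots (68.1% thinned) and 31.0% of muscle-like spots (12.3% thinned). *Lce3c* was detected in 17.7%, 55.7% and 16.7% of them (12.1%, 38.1% and 6.08% thinned). *Flg2* was detected in 86.4% of IFE-like spots and 15.8% of muscle-like spots (79.1% and 6.08% thinned). Upper HF-like spots were themselves above muscle for most genes. There, 15 of 20 tested genes were called higher in the upper HF (28.5% of all 11338 genes, while 29.7% were called higher in muscle). The median log2 fold was 1.61, against -0.0062 over all genes. None was called higher in muscle by edgeR or DESeq2 (0 also at an unadjusted p under 0.05 with either tool), and 5 were not called.

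Distance from the epidermis was counted on the spot grid, with IFE-like spots at step 0 and their direct neighbours at step 1. The classes were set on the same spots, so the profiles describe them and carry no test. The mean level of *Lor* was 4710 CPM at step 0, 461 at step 1, 184 at step 2, 105 at step 3 and 59.8 at step 4, and did not rise above 83.1 CPM further out. From step 0 to step 1 it fell 10.3-fold (log2 ratio 3.37 ± 0.21, n = 4 slices, 3.19 to 3.63). *Krtdap* had 5324, 712, 284, 133 and 74.4 CPM over the same steps. The largest drop of both genes thus came within 1 step of the epidermis.

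*Dmkn* and *Kprp* fell at first and then rose a little. *Dmkn* had 3681, 1128, 681 and 517 CPM at steps 0 to 3, 650 CPM at step 5 and 431 CPM at step 8 or more. *Kprp* had 172, 48.1 and 21.9 CPM at steps 0 to 2, 36.4 CPM at step 4 and 5.97 CPM at step 6.

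Of the 7 follicular genes, 5 had their highest step mean at step 4. *Crnn* had 250, 281, 526, 1069, 1224, 692 and 346 CPM at steps 0 to 6. Its level at step 4 was 4.97-fold that at step 0 (log2 ratio 2.31 ± 0.24, n = 4 slices, 2.03 to 2.59). *Sprr2h* (30.2 CPM at step 0, 182 at step 4), *Lce3c* (23.1 and 87.8), *Sprr1b* (58.7 and 197) and *Ivl* (202 and 382) were the others. *Lce3d* had 11.5 CPM at both step 4 and step 5. At that step, 351 spots belonged to the *Krtap4-9*-led region, 184 to the hair shaft-like region and 125 to the *Slc45a3*-led region. *Sprr1a* peaked at step 1, with 3216 CPM against 1834 at step 0 (log2 ratio 0.81 ± 0.07, n = 4 slices), and had 1947 CPM at step 4 and 643 at step 8 or more. Step 1 held 471 upper HF-like and 247 sebaceous gland-like spots.

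**Figure D3:**
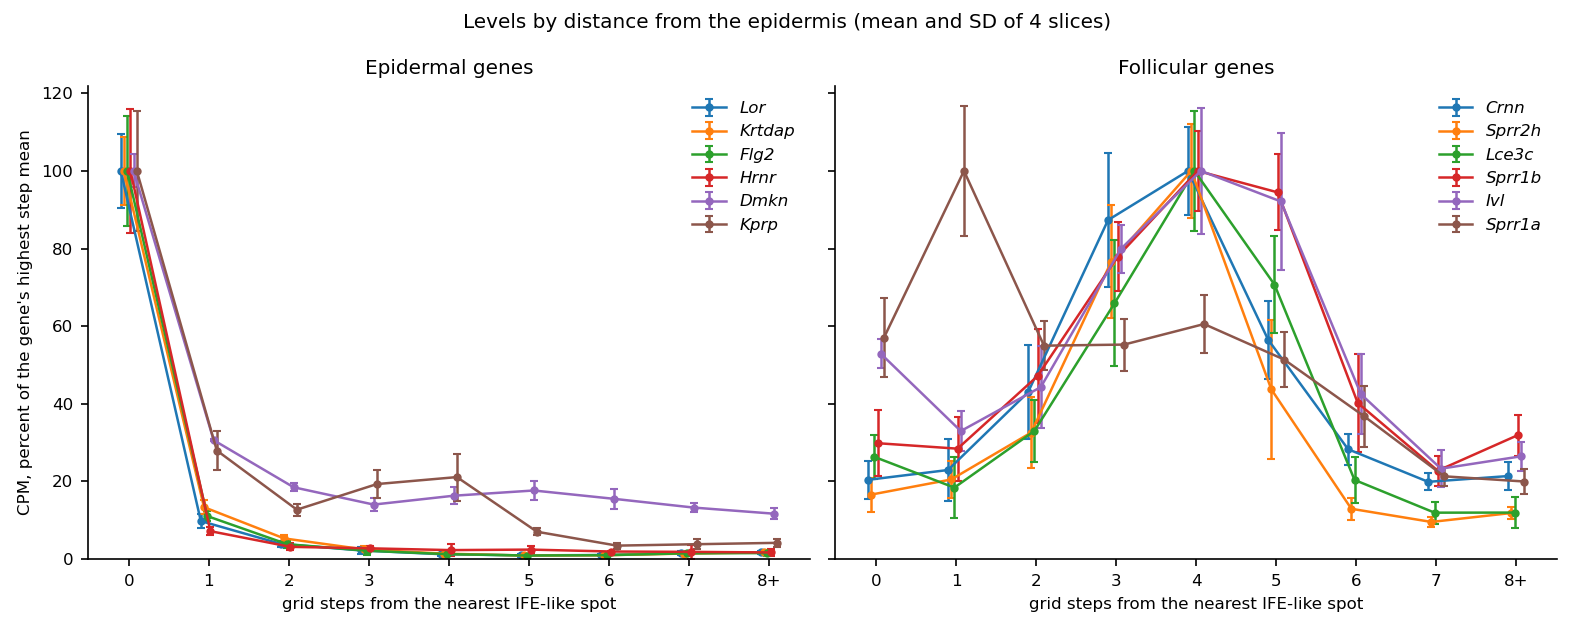
Level by grid steps from the nearest IFE-like spot, as a percentage of each gene's highest step mean (linear axis; points are means and whiskers SDs of 4 slices), for 6 epidermal genes (left) and 6 follicular genes (right). Epidermal genes drop within 1 step (*Lor* from 4710 to 461 CPM), *Crnn*, *Sprr2h*, *Lce3c*, *Sprr1b* and *Ivl* peak at step 4, and *Sprr1a* peaks at step 1.

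Within the upper HF, spots at step 1 from the IFE (471 spots, median 9353 UMIs) were compared with those at step 2 or more (289 spots, median 10445 UMIs). Near the epidermis, 6 of 19 tested genes were called higher (1.38% of all 8814 genes were), none was called lower by edgeR or DESeq2 (0 also at an unadjusted p under 0.05 with either tool; 0.987% of all genes were called lower by edgeR), and 13 were not called. The median log2 fold was 0.38, against -0.0078 over all genes. Of the genes called, 5 were among 12 epidermal genes tested and 1, *Sprr1a*, among 6 follicular ones.

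*Kprp* had 43.3, 45.8, 52.6 and 59.2 CPM near the IFE and 23.0, 23.0, 28.6 and 30.5 CPM further away, a log2 fold of 0.95 (edgeR adjusted p = 0.002291). *Sprr1a* had 4695, 3191, 3169 and 4192 CPM near and 2600, 2029, 2137 and 2086 CPM away (0.82, edgeR adjusted p = 0.0004463). *Krtdap* had 539, 676, 722 and 659 CPM near and 375, 418, 439 and 461 CPM away (0.65, edgeR adjusted p = 0.001278). For these 3 genes no far slice reached the lowest near slice. *Flg2* had 48.4, 46.7, 58.5 and 52.5 CPM near and 19.5, 37.9, 25.1 and 37.5 CPM away (0.76, edgeR adjusted p = 0.02229). *Lor* had 251, 366, 426 and 373 CPM near and 177, 262, 272 and 265 CPM away, with groups that overlapped (0.56, edgeR adjusted p = 0.03691). *Lce1m* was called too (0.78, edgeR adjusted p = 0.02715). Without replicate 3, and likewise without replicate 4, 3 genes were called. With spots thinned, and likewise with 3 tissue strips as units in place of the slices, 2 were.

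Markers of both neighbouring regions moved the same way. The 10 IFE markers summed to 1600 to 1799 CPM in near spots and 1274 to 1409 CPM in far spots (7 of 10 higher near, 2 at 0 in both), and the 10 upper HF markers to 9587 to 11214 CPM and 6349 to 7860 CPM (9 of 10 higher near). Their part in these differences was not tested.

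Within the IFE, spots with an upper HF-like neighbour (531 spots, median 8405 UMIs) were compared with those without (275 spots, median 9563 UMIs). All 23 epidermal genes had lower levels beside the follicle, but few passed the test and the calls were unstable. Of 30 genes tested, 9 were called lower beside the upper HF (0.738% of all 8805 genes were), 1, *Sprr1a*, was called higher (0.613% of all genes), and 20 were not called. The median log2 fold was -0.55, against 0.003 over all genes. With 16 clusters, and likewise with regions from marker scores, no gene was called in either direction by edgeR (at an unadjusted p under 0.05, 6 were lower and 1 higher with 16 clusters, and 4 were lower and 0 higher with marker scores). *Lor* then had log2 folds of -0.28 and -0.14, and *Hrnr* turned to 0.023 with marker scores. The call of *Sprr1a* was also lost with DESeq2, with 1 fit of all regions and with the members kept in the clustering. With the slice as a block, 16 genes were called lower and 2 higher.

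*Lor* had 3109, 4114, 4261 and 3811 CPM beside the follicle and 5783, 7525, 5060 and 6535 CPM away from it (log2 fold -0.70, edgeR adjusted p = 0.005173). *Krtdap* had 3562, 4809, 4888 and 4273 CPM beside and 6421, 7882, 5829 and 7582 CPM away (-0.65, edgeR adjusted p = 0.005858). Neither gene's groups overlapped. *Flg2* (-0.73, edgeR adjusted p = 0.0117), *Hrnr* (-0.66, 0.01724), *Dmkn* (-0.55, 0.0117), *Lce1f* (-0.87, 0.03935), *Lce1m* (-0.74), *2310050C09Rik* (-0.67) and *Lce1a2* (-0.67) were the others called lower. *Sprr1a* had 2628, 1812, 1794 and 2099 CPM beside and 1847, 1165, 1307 and 1308 CPM away (0.57, edgeR adjusted p = 0.04068), and the groups overlapped. Without replicate 4 none of the 10 calls held, and 4 and 3 genes were called lower without replicates 1 and 2. Markers moved with position here as well. The IFE markers summed to 8188 to 11151 CPM beside and 14121 to 17941 CPM away (8 of 10 lower beside), and the upper HF markers to 6558 to 7091 CPM and 4513 to 5398 CPM (10 of 10 higher beside). Their part in these differences was not tested.

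**Figure D4:**
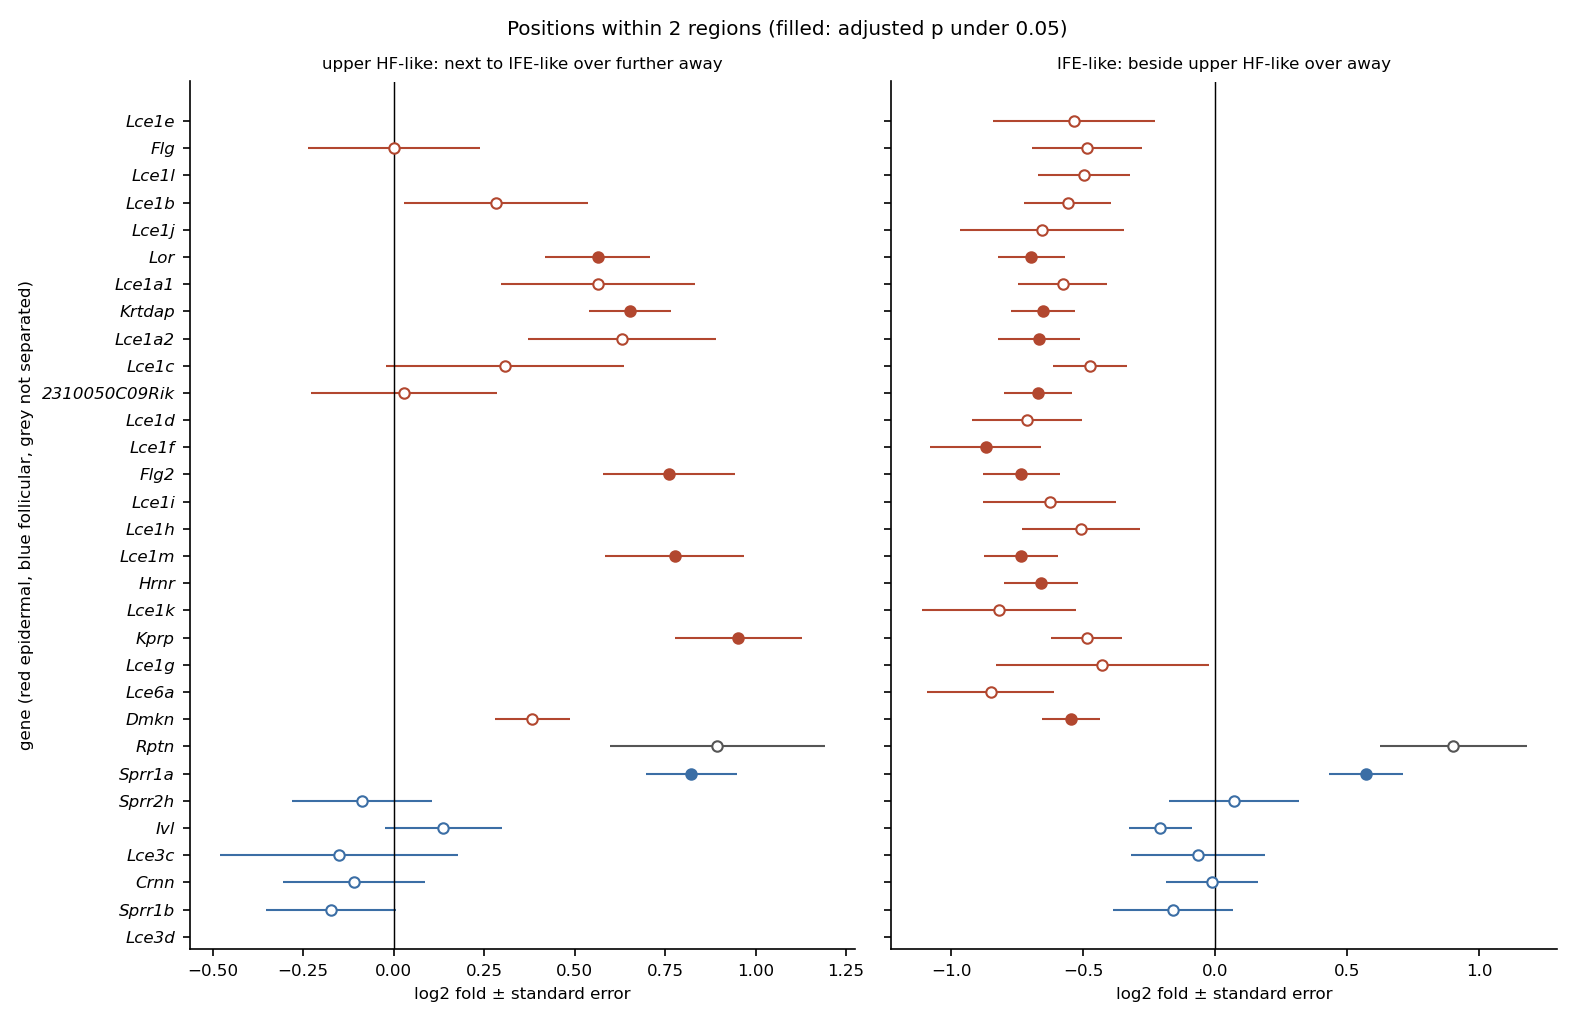
Log2 fold with its standard error for each tested gene, left for upper HF-like spots next to the IFE over those further away and right for IFE-like spots beside the upper HF over those away (red epidermal, blue follicular, grey not separated; filled points have an adjusted p under 0.05 in edgeR). On the left 6 genes are filled, from *Lor* (0.56) to *Kprp* (0.95), and on the right all 23 epidermal genes lie under 0 and *Sprr1a* (0.57) above.

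Genes that process, cross-link or seal the envelope were counted in the same comparisons. Those of the lipid envelope, which is bound to the outside of the protein envelope, went together with the epidermal class in the upper HF comparison. All 13 were called higher in the IFE (median log2 fold 0.97; 12.7% of all genes were called higher in the IFE and 11.6% lower), led by the lipoxygenase genes *Alox12b* (34.8 CPM against 2.72, log2 fold 3.66) and *Aloxe3* (2.96) and the fatty acid elongase gene *Elovl1* (503 CPM against 89.3, 2.50). Of 9 scaffold and cross-linking genes, 6 were called higher in the IFE and 1 lower (median 0.74), with the largest differences for *Ppl* (periplakin, 0.97), *Sbsn* (suprabasin, 0.87) and *Evpl* (envoplakin, 0.81). Proteases and deiminases were mixed, with 2 of 12 higher, 5 lower and a median of -0.15. *Casp14*, a caspase of the cornifying layer, had 127 CPM in the IFE and 18.4 CPM in the upper HF (2.81), *Klk5* was higher (0.64), and *Ctsd*, which encodes the lysosomal protease cathepsin D, was lower (-0.68). Of 16 transcription factor genes, 4 were higher and 1 lower, with *Grhl3* (1.76), *Gata3* (1.39) and *Klf4* (0.95) the largest, and the median was 0.02. Of 15 tested among 19 other genes of the complex, 3 were higher and 3 lower (median -0.08), the largest being *Pglyrp4* (1.69), *S100a1* (-1.37) and *S100a6* (-1.07).

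Against hair shaft-like spots, where 31% of all genes were called higher in the IFE and 28.6% lower, each list held genes called in both directions. Scaffold and cross-linking genes had 4 higher in the IFE and 4 lower, lipid envelope genes 8 and 5, proteases and deiminases 6 and 3, transcription factors 6 and 8, and the other genes of the complex 5 and 10. *Casp14* (4.93) stayed on the epidermal side, and *Evpl* (-0.67) was higher in the shaft. Against the *Krtap4-9*-led region, 3 scaffold genes were higher in the IFE and 6 lower, and 10 of the 15 other genes of the complex were lower in the IFE (24.1% of all genes were called higher there and 22.9% lower). Within the upper HF, *Cst6* (0.98), *S100a4* (0.69), *Asprv1* (0.59) and *Sbsn* (0.51) were called higher near the IFE and *S100a1* (-0.50) lower. Of all genes, 1.38% were called higher near the IFE and 0.987% lower. The scaffold, protease, lipid, transcription factor and other lists held 9, 12, 10, 15 and 14 tested genes there. Within the IFE, *Cst6* (0.77) was called higher beside the upper HF, and *Elovl1* (-0.69) and *Abca12* (-0.63) lower. Of all genes, 0.613% were called higher beside the upper HF and 0.738% lower. In the same order, the lists held 9, 12, 13, 16 and 15 tested genes.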

How the data were processed

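Visium libraries of 4 slices of dorsal skin were analyzed. Per the file headers, the authors made the files with Space Ranger 2.0.1, and the submitters' processing notes name the build mm10. They deposited UMI counts per gene and spot, unnormalized and for spots over tissue. A section that the authors left out as distorted could not be told apart in the spots used here. Whether spots of unequal depth or shared 3′ ends shift a level is addressed by thinning and by counting shared 90-base words.

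Spots with fewer than 250 genes were left out (9 of 6420). Seurat 5.3.0 under R 4.3.3 clustered log-normalized counts (2000 variable genes, 30 components, 20 neighbours, 12 clusters at a resolution of 0.6) without the 47 genes and 69 genes of related lists. Names required 4 or more of 10 markers with a log2 fold of 1 or above (pseudocount 5 CPM) and at least 1 among the 20 leading genes. Spots hold several cells, so doublets were not called. For each region, UMI counts were added up within a slice, and the sums entered edgeR 4.0.16 with TMM scaling, filterByExpr and the quasi-likelihood test (Benjamini-Hochberg over all genes, threshold 0.05). Members, lists and tests were chosen with earlier results of these data known. Genes named are *Lor*, *Flg*, *Flg2*, *Ivl*, *Hrnr*, *Krtdap* and *Dmkn*, the follicular genes, the 6 called with the largest log2 fold in each direction against the upper HF and, per related list, the 3 called with the largest log2 fold there. *Rptn*, *Kprp*, *Lce6a*, *Lce1g*, *2310050C09Rik* and the other genes called by position were named after their values were seen. The comparisons with the *Slc45a3*-led and *Krtap4-9*-led regions, and of the upper HF with muscle, were added after the clusters had been seen.

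In simulated counts for IFE-like against upper HF-like sums, edgeR called 85.5% of the 200 genes given a log2 fold of 1 among 10663, and 6.04% of its calls were false. For near against far upper HF spots these were 75% among 8814 and 3.85%. Sums of one slice come from the same sections, so the slice numbers pair them by design. Their deviations correlated at 0.30, 0.17, 0.09 and 0.19 for IFE-like against upper HF-like sums. Alternatives covered the clustering, the regions, the spot and gene filters, the scaling, DESeq2 1.42.0, a shared fit, the replicate block, thinning to 5500 UMIs (563 spots too shallow), tissue strips and each slice left out. The 3 strips (A, B and C) part each slice along its muscle-like and IFE-like lines and approximate its 3 sections. *Xist* made up 84.6% to 92.4% of *Xist* and Y-linked UMIs in strip C and 6.95% to 13.0% in the others. IFE levels in strips A, B and C were 4234, 4777 and 4910 CPM for *Lor* and 7.30, 26.1 and 31.3 CPM for *Lce1h*. Gene positions come from GENCODE M21.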

Additional observations from a re-analysis of the deposited data

Results flagged for a closer look

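In 3 of 90 groups of 4 slices examined, 1 slice lay far from the rest by Dixon's test at the 95% level, which chance alone gives in about 1 of 20 groups. *Lor* in hair shaft-like spots was 49.4 CPM in replicate 4 and 32.5 to 34.8 CPM in the others. *Dmkn* in the *Krtap4-9*-led region was 653 CPM in replicate 1 and 498 to 515 CPM in the others. *Lce1e* in the *Krtap4-9*-led region was 0.398 CPM in replicate 1, which is 1 UMI, and 0 in the others.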

How the results depend on the processing

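Of the single values outside the counts, 1782 kept their direction and their side of the threshold under the 15 alternatives, 82 lost their call (50 of them beside against away from the upper HF and 25 near against far), 12 gained one, and 16 changed sign. Of the counts and ratios, 327 moved by less than 1.5 times or 1 SD and 42 moved further. The epidermal class held 21 to 23 genes and the follicular class 7 or 8. Members higher in the upper HF than in the IFE numbered 2 with regions from marker scores (1 in the report). Members higher in muscle than in the IFE numbered 1 without the low-gene filter, with the replicate block and with thinned spots (0 in the report), and 0 to 1 with 1 slice left out; this member was *Crnn*. Members higher near the IFE within the upper HF (6) numbered 12 with 16 clusters, 13 with marker scores, 2 with thinned spots, 2 with tissue strips and 3 to 6 with 1 slice left out. Members higher in the IFE away from the upper HF (9) numbered 0 with 16 clusters and with marker scores, 17 with all spots, 17 without the low-gene filter, 16 with the replicate block and 0 to 10 with 1 slice left out. Those higher beside it (1) numbered 0 with 16 clusters, with 1 fit of all regions, with DESeq2, with marker scores and with members kept in the clustering, 2 without the filter and with the replicate block, and 0 to 1 with 1 slice left out. Related genes higher near the IFE (4) numbered 11 with 16 clusters, 9 with the replicate block, 2 with tissue strips and 2 to 4 with 1 slice left out, and those higher beside the upper HF (1) numbered 2 with all spots and 3 with the replicate block. The replicate block changed no other count by over 1.5 times. The log2 ratio of *Lor* from step 0 to step 1 (3.37) was 2.57 with 16 clusters, 2.93 with all spots and 2.19 with marker scores, that of *Crnn* from step 4 to step 0 (2.31) was 2.03 with marker scores, and that of *Sprr1a* from step 1 to step 0 (0.81) was 1.12 with 16 clusters, 1.00 with marker scores and 0.89 with thinned spots. Signs changed only for genes not called in the report, apart from *Hrnr* beside against away from the upper HF (0.023 with marker scores). Against the upper HF these were *Sprr2h* (0.15 with 16 clusters), *Crnn* (0.044 with 16 clusters), *Sprr1b* (0.23 with 16 clusters, 0.20 with marker scores, 0.075 with members kept, 0.012 with strips, and -0.11 to 0.031 with 1 slice left out) and *Rptn* (-0.64 with 16 clusters, -1.09 with marker scores, -0.0013 with members kept, -0.020 with the replicate block, -0.13 with thinned spots, and -0.043 to 0.18 with 1 slice left out). *Sprr1b* against muscle was 0.28 with 16 clusters, and *Rptn* against the *Krtap4-9*-led region was 0.16 with library size alone. The cause of these moves was not tested. The 16 untested members did not pass the filter on low counts, and why their counts were low was not tested. *Lce3d* and *Lce1e* rest on few UMIs.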
